A study of Mus musculus with 4 samples.

Results

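Transcripts of matrix metalloproteinases, of 2 aggrecan-cleaving relatives and of their inhibitors were examined in mouse granulosa cells (GCs). The 10 genes were chosen by name, with earlier results of these data known: Mmp2, Mmp9, Mmp11, Mmp14 and Mmp15, the inhibitors Timp1, Timp2 and Timp3, and Adamts4 and Adamts5. All 10 were found among the 55385 genes of the deposited count table, each under a single Ensembl identifier, and 9 passed the filter on low counts. Preantral follicles of Kunming mice aged 12 to 14 days had been cultured for 6 days, and RNA of the GCs was sequenced in bulk. The NT4 group (n = 2 libraries) came from follicles given neurotrophin-4 (NT-4, a ligand of the receptor TRKB), and the Control group (n = 2) from follicles given none. By the study's methods, the medium of both groups held FSH, fetuin, insulin and transferrin, and the GCs were the cumulus cells left once oocytes had been freed from their complexes. A figure legend of the study gives the libraries of a group as independent experiments. The labels give neither the number of follicles or animals behind a library nor the NT-4 dose, and the study settled on a single dose after comparing several.

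Matrix metalloproteinases (MMPs) are zinc enzymes, made as inactive proenzymes, that cut collagens, laminins, proteoglycans and surface proteins. ADAMTS enzymes share the zinc chemistry, and ADAMTS4 and ADAMTS5 cut the large hyaluronan-binding proteoglycans aggrecan and versican. Tissue inhibitors of metalloproteinases (TIMPs) plug the catalytic cleft, and TIMP3 also inhibits ADAMTS4 and ADAMTS5. In the ovary these enzymes take part in the remodelling of the basement membrane and theca as follicles grow, rupture or degenerate.

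The sequences of the working parts are shown because they define who is enzyme and who is inhibitor in this family. The reference coding bases of the zinc-binding site, 33 bases from the first to the last zinc-binding histidine, were read 5′ to 3′ on the coding strand from the GENCODE transcripts of GRCm38, with the 3 histidine codons in capitals:
Mmp2: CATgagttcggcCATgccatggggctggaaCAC
Mmp9: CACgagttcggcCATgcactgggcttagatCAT
Mmp11: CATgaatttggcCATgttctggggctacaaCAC
Mmp14: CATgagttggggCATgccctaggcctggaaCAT
Mmp15: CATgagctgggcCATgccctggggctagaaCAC
Adamts4: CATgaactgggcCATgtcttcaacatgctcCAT
Adamts5: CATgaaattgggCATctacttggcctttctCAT

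Any 2 of the 5 MMP sites shared 23 to 29 of 33 bases, with Mmp2 and Mmp15 the closest. An MMP site and an ADAMTS site shared 18 to 22 bases, and Adamts4 and Adamts5 shared 19. Each MMP site lay within 1 exon, at chr8:92839279-92839311 (exon 8) for Mmp2, chr2:164951133-164951165 (exon 8) for Mmp9, chr10:75926931-75926963 (minus strand, exon 5) for Mmp11, chr14:54437627-54437659 (exon 5) for Mmp14 and chr8:95368585-95368617 (exon 5) for Mmp15. In Adamts4 (chr1:171253210-171253915) the site was split between exons 3 and 4, and in Adamts5 (chr16:85878015-85887826, minus strand) between exons 2 and 3.

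The inhibitors act with the start of the mature protein, where a first cysteine reaches the enzyme's zinc. Its reference coding bases are given for the same reason, 39 bases with the first 3 cysteine codons in capitals:
Timp1: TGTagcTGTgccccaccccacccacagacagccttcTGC
Timp2: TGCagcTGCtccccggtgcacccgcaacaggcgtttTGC
Timp3: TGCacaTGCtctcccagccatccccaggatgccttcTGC

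Each of the 3 pairs of inhibitors shared 25 of 39 bases. These stretches lay at chrX:20871111-20871149 (exon 2) for Timp1, chr11:118354974-118355012 (minus strand, exon 1) for Timp2 and chr10:86300923-86300961 (exon 1) for Timp3.

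Library totals were 49520092 to 78704020 counts. Low counts piled up at multiples of 4, so 1 read pair was taken as about 4 counts, and a gene with no count could lie anywhere up to 3 read pairs, or 0.156 to 0.239 CPM by library (CPM being the count relative to the TMM-scaled library total), counting error only. All 12 GC markers were detected, with Fshr, the FSH receptor, at 108 to 162 CPM and Foxl2, a transcription factor of GC identity, at 162 to 253 CPM. Theca and oocyte markers were detected too. Cyp17a1, the androgen-making enzyme of theca, had 72.1 and 134 CPM in the Control libraries and 134 and 173 CPM in the NT4 libraries, and the oocyte factor Gdf9 was at 23.0 to 30.8 CPM. Of 7 macrophage markers, Tyrobp was at 0 in all 4 libraries and Ptprc in 3 of them, while Cd68 (0.624 to 1.41 CPM), Lyz2 (0.407 to 1.27) and Cd14 (0.159 to 1.03) were low but detected, and Csf1r and Adgre1 lay between 0 and 0.192 CPM. Of 7 surface epithelium markers, Krt19 and Upk1b were at 0 in all 4 libraries, while Krt8 was at 26.1 to 33.2 CPM and Krt18 at 7.92 to 11.2 CPM. By library the summed markers came to 2.28 to 3.98 CPM for macrophages, 34.1 to 43.0 for epithelium and 19.3 to 28.3 for endothelium (Cdh5 alone 16.4 to 25.4), each highest in NT4 1, and to 63.6 to 93.6 for oocytes, highest in Control 1. In bulk RNA, more cells of a type and more RNA per cell cannot be told apart.

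No gene of the family differed between the groups by the test, and Mmp11, Timp2, Timp1 and Mmp14 carried most of the transcripts. By edgeR's quasi-likelihood test, 0 of the 9 genes tested passed an adjusted p of 0.05 over all 19259 genes, where 0% of all genes passed. None had an unadjusted p under 0.05, against 1.99% of all genes, and none met the study's criterion of a 2-fold change with such a p, against 1.08%. DESeq2, edgeR's exact test and limma voom also called none of the 9, against 0.253%, 0.306% and 0% of all genes. Every one of the 9 had an adjusted p of 0.9999 in edgeR's quasi-likelihood test. On the log2 scale 7 of the 9 were higher in NT4 and 2 lower, with a median of 0.14, against 51.0% higher and a median of 0.0045 over all genes. Without NT4 1 the median of the 9 genes was −0.13.

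**Figure D1:**
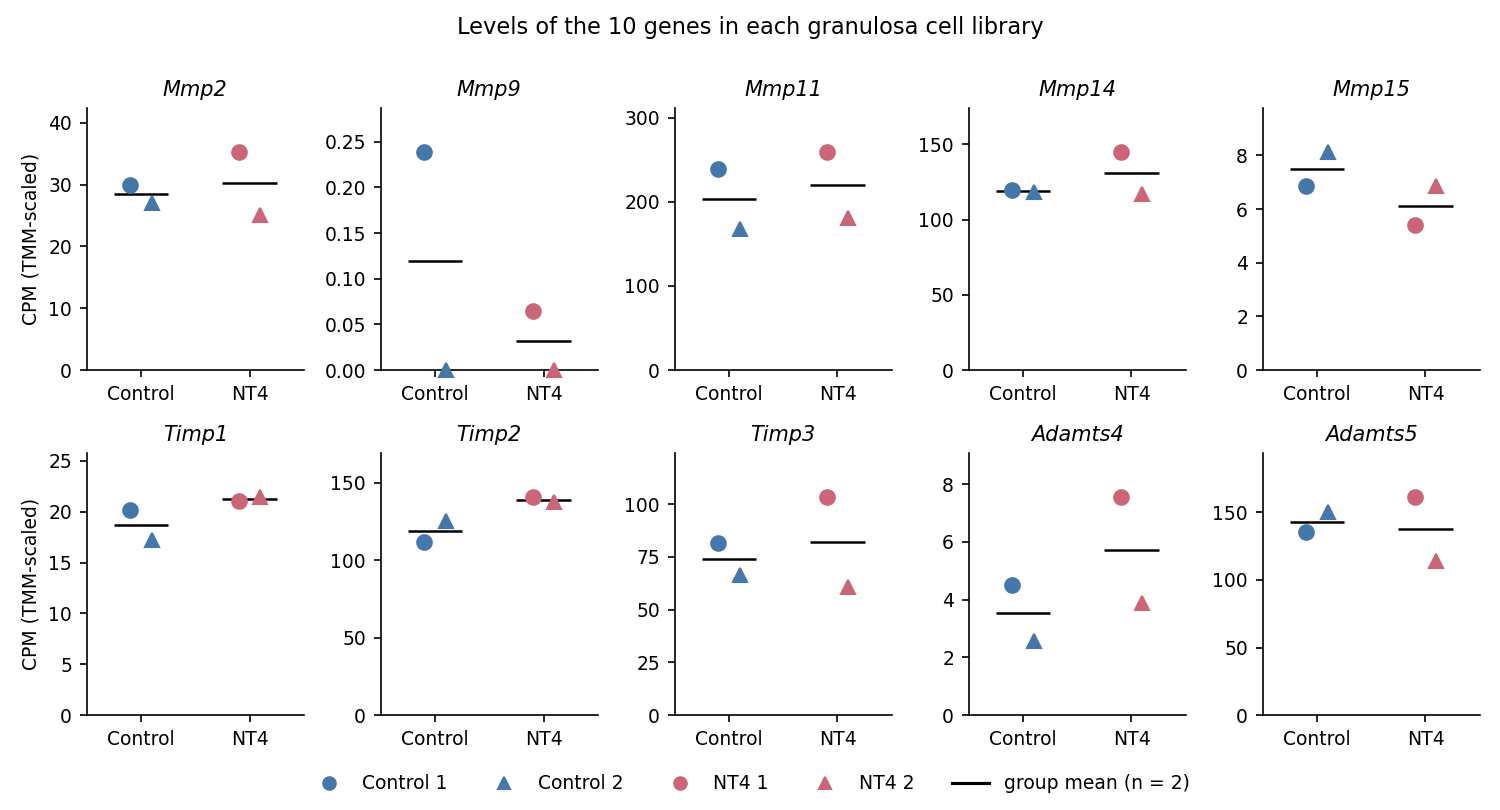
CPM of each of the 10 genes in the 4 libraries, with Control in blue, NT4 in red, circles for replicate 1, triangles for replicate 2 and a bar at the mean of each group (n = 2). In Timp1 and Timp2 both NT4 libraries lie above both Control libraries, in the other 8 genes the groups overlap, and Mmp9 sits at or near 0.

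The enzymes were taken first. Mmp11 (stromelysin-3, a secreted MMP with a weak action on most matrix proteins; ENSMUSG00000000901, chr10:75923222-75936496) had 239 CPM (replicate 1) and 168 CPM (replicate 2) in Control, against 259 and 181 CPM in NT4. Replicate 1 was the higher library in both groups, and the group means, 203 ± 50.5 and 220 ± 55.2 CPM (SD, n = 2), differed by less than either SD. Its log2 fold change of NT4 over Control was 0.12 (SE 0.25). That value was −0.17 without NT4 1, −0.11 without Control 2 and 0.39 without Control 1. The gene shares 155 bases of exon with Chchd10 on the opposite strand, whose own level was 111 to 166 CPM with a log2 fold change of −0.04, and although the library kit marked strand, the sources do not say whether counting used it.

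Mmp14 (MT1-MMP, a membrane-anchored collagenase that activates the MMP2 proenzyme; ENSMUSG00000000957, chr14:54431612-54445364) was at 119.9, 118, 145 and 117 CPM in Control 1, Control 2, NT4 1 and NT4 2. Only NT4 1 stood above the others, and NT4 2 was the lowest of the 4. The log2 fold change was 0.14 (SE 0.14), −0.032 without NT4 1 and 0.28 without NT4 2. Mmp2 (gelatinase A, which cuts type IV collagen of basement membranes; ENSMUSG00000031740, chr8:92827291-92853420), the enzyme that MMP14 activates, followed the same order at a lower level. It was at 29.9, 27.0, 35.3 and 25.1 CPM in the same libraries, with a log2 fold change of 0.086 (SE 0.21). That value was −0.19 without NT4 1 and 0.31 without NT4 2. For both genes the NT4 libraries lay on either side of the Control libraries.

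Mmp15 (MT2-MMP, the other membrane-anchored MMP among the 10 genes; ENSMUSG00000031790, chr8:95352268-95375080) ran the other way. Its Control libraries held 6.85 and 8.13 CPM and its NT4 libraries 5.39 and 6.86 CPM, so NT4 2 and Control 1 were all but equal. The log2 fold change was −0.29 (SE 0.23; 95% interval −0.87 to 0.29), and it stayed below 0 with each library left out, at −0.48 to −0.13. The difference of the means, from 7.49 ± 0.907 to 6.12 ± 1.04 CPM (SD, n = 2), was larger than either SD but did not pass the test.

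Mmp9 (gelatinase B, a secreted type IV collagenase typical of leukocytes; ENSMUSG00000017737, chr2:164940780-164955850) was barely detected. It had 12 counts in Control 1, or about 3 read pairs, 4 counts in NT4 1 and 0 in Control 2 and NT4 2, where a count of 0 allows up to 0.163 and 0.156 CPM. It was not tested, and no fold is given because both groups were at or under the floor.

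The inhibitors were compared next. Timp2, which both inhibits MMPs and helps MMP14 to activate MMP2 (ENSMUSG00000017466, chr11:118301069-118355740), had 112 and 125 CPM in the Control libraries, against 141 and 137 CPM in the NT4 libraries. Both NT4 libraries lay above both Control libraries, and the means were 119 ± 9.59 and 139 ± 2.46 CPM (SD, n = 2). Its log2 fold change of 0.23 (SE 0.12; 95% interval −0.077 to 0.53) had the smallest unadjusted p of the 9 genes, 0.114 by edgeR's quasi-likelihood test over all genes. Leaving out any 1 library gave 0.14 to 0.32.

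Timp1, a secreted inhibitor known as a gene induced by growth factors and gonadotropin (ENSMUSG00000001131, chrX:20870166-20874735), was at 20.1, 17.2, 21.0 and 21.4 CPM in Control 1, Control 2, NT4 1 and NT4 2. Again both NT4 libraries lay above both Control libraries, although Control 1 was within 1 CPM of NT4 1. The log2 fold change was 0.19 (SE 0.16; 95% interval −0.22 to 0.60). It was 0.082 without Control 2 and 0.30 without Control 1. Timp1 and Timp2 were the 2 genes of 9 whose groups did not overlap, against 26.0% of all genes tested, and in both NT4 was the higher group, against 13.4%. None of the 9 had both NT4 libraries below both Control libraries, against 12.7%.

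Timp3, which binds to the matrix and inhibits ADAMTS4 and ADAMTS5 besides MMPs (ENSMUSG00000020044, chr10:86300372-86349506), had the widest spread of the inhibitors. The Control libraries held 81.8 and 66.2 CPM and the NT4 libraries 103 and 60.7 CPM, so the NT4 libraries were the highest and the lowest of the 4. The log2 fold change was 0.15 (SE 0.28), −0.29 without NT4 1 and 0.48 without NT4 2. Timp3 shares 1733 bases of exon with Syn3 on the opposite strand, which was at only 0.876 to 1.65 CPM.

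The aggrecanases followed. Adamts5 (ENSMUSG00000022894, chr16:85856173-85901828) was at 136, 150.1, 161 and 114 CPM in Control 1, Control 2, NT4 1 and NT4 2. The NT4 libraries again took the highest and the lowest place, and the log2 fold change was −0.053 (SE 0.19; 95% interval −0.54 to 0.43). It was −0.33 without NT4 1, 0.17 without NT4 2 and 0.025 without Control 2.

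Adamts4 (ENSMUSG00000006403, chr1:171250421-171260637) had the largest fold change of the 9 genes and also the largest error. Control libraries held 4.50 and 2.56 CPM and NT4 libraries 7.55 and 3.89 CPM, and NT4 2 lay below Control 1. The log2 fold change was 0.70 (SE 0.44), and the 95% interval of −0.41 to 1.81 takes in 0 as well as more than a doubling. It was 0.14 without NT4 1 and 0.35 without Control 2, and 1.10 without NT4 2 and 1.15 without Control 1.

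**Figure D2:**
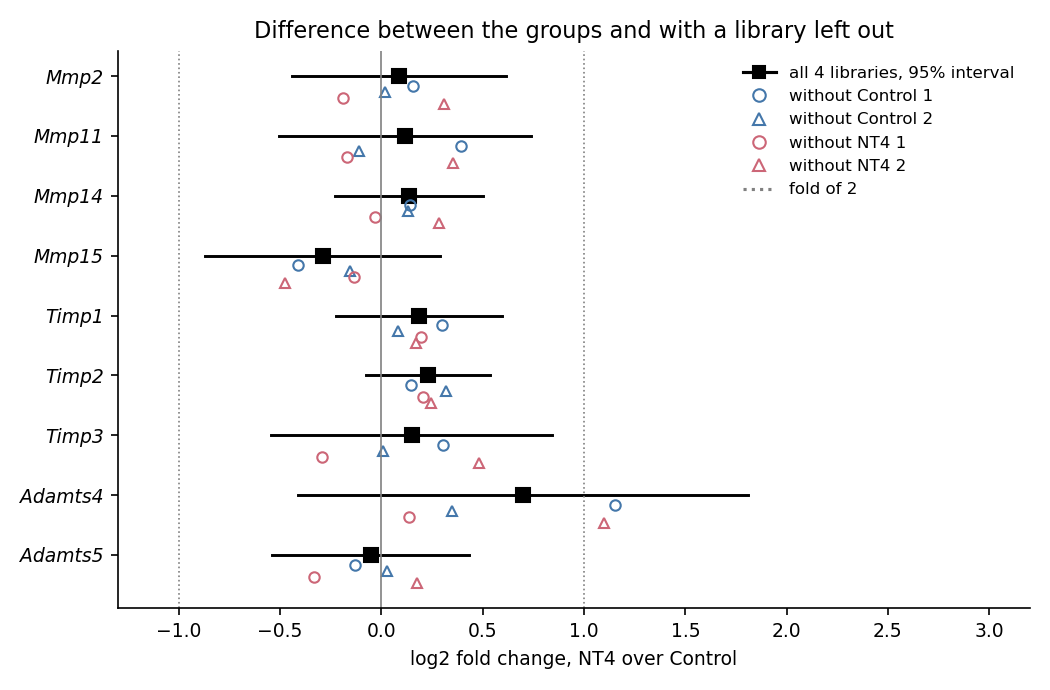
Log2 fold change of NT4 over Control for the 9 genes tested. Black squares with bars give the estimate from all 4 libraries and its 95% interval, open symbols the estimate with 1 library left out, and dotted lines a 2-fold change. Every interval crosses 0, and without NT4 1 (open red circles) Mmp2, Mmp11, Mmp14 and Timp3 fall to the left of 0.

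The intervals say how large a difference could still be present. For 8 of the 9 genes, all but Adamts4, the 95% interval lay inside a 2-fold change in either direction. The narrowest were those of Timp2, from 0.948-fold to 1.45-fold, and Mmp14, from 0.854-fold to 1.42-fold. Differences inside these intervals could not be told from 0 with 2 libraries a group.

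Libraries mostly differed more than groups did, in these genes about as often as over all genes. In 7 of the 9 genes the NT4 libraries were farther apart on the log2 scale than the group means, against 69.7% of all genes, and in 6 the Control libraries were, against 64.4%. The median distance between the NT4 libraries was 0.49 for the 9 genes and 0.30 for all genes. Between the Control libraries it was 0.23 for both. In 3 of the 9 genes, Mmp15, Timp1 and Timp2, the difference of the group means in CPM exceeded the larger SD, against 25.5% of all genes.

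The genes shared a high level in NT4 1. That library was the highest of the 4 in 7 of the 9 genes (Mmp2, Mmp11, Mmp14, Timp2, Timp3, Adamts4 and Adamts5), where it was the highest in 26.5% of all genes tested. NT4 2 was the lowest in 4 of the 9, against 27.5% of all genes. Mmp15 went against the rest, as it was lowest in NT4 1. On the log2 scale NT4 1 lay above the mean of the 4 libraries by 0.81 for Adamts4, 0.44 for Timp3, 0.32 for Mmp11 and 0.28 for Mmp2.

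Markers of cell types differed between libraries too, but not all in the same way. The 11 theca and stroma markers summed to 1473 and 1438 CPM in Control 1 and Control 2, and to 2099 and 1694 CPM in NT4 1 and NT4 2. Of these, 8 of 11 had both NT4 libraries above both Control libraries (13.4% of all genes), and 9 were highest in NT4 1 (26.5%). The 12 GC markers summed to 14289, 17754, 12515 and 19594 CPM in the same libraries, lowest in NT4 1 and highest in NT4 2, and Inha alone gave 5819 to 8867 CPM of that sum. Of the 12, 9 were highest in NT4 2 (29.3% of all genes), but Amh, the anti-Müllerian hormone, ran the other way at 299, 151, 391 and 91.4 CPM, and Esr2 was lowest in NT4 2. The theca and stroma markers did not share 1 pattern. Collagen Col1a1 was at 158, 157, 257 and 161 CPM, high in NT4 1 alone, while Acta2 was at 235, 212, 310 and 296 CPM, high in both NT4 libraries. Inhbb, the inhibin and activin subunit βB made by GCs, was at 1510, 2688, 1047 and 3223 CPM. The macrophage markers summed to 2.59 and 2.28 CPM in Control and 3.98 and 3.46 CPM in NT4. The epithelium and endothelium sums were highest in NT4 1 too, although Pecam1 was lowest there and Kdr and Krt18 were highest in Control 1. Of the markers tested, NT4 1 was the highest library in 3 of 6 for endothelium and 1 of 3 for epithelium (26.5% of all genes). The part of these cell types in the levels of the MMP, TIMP and ADAMTS genes was not tested.

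**Figure D3:**
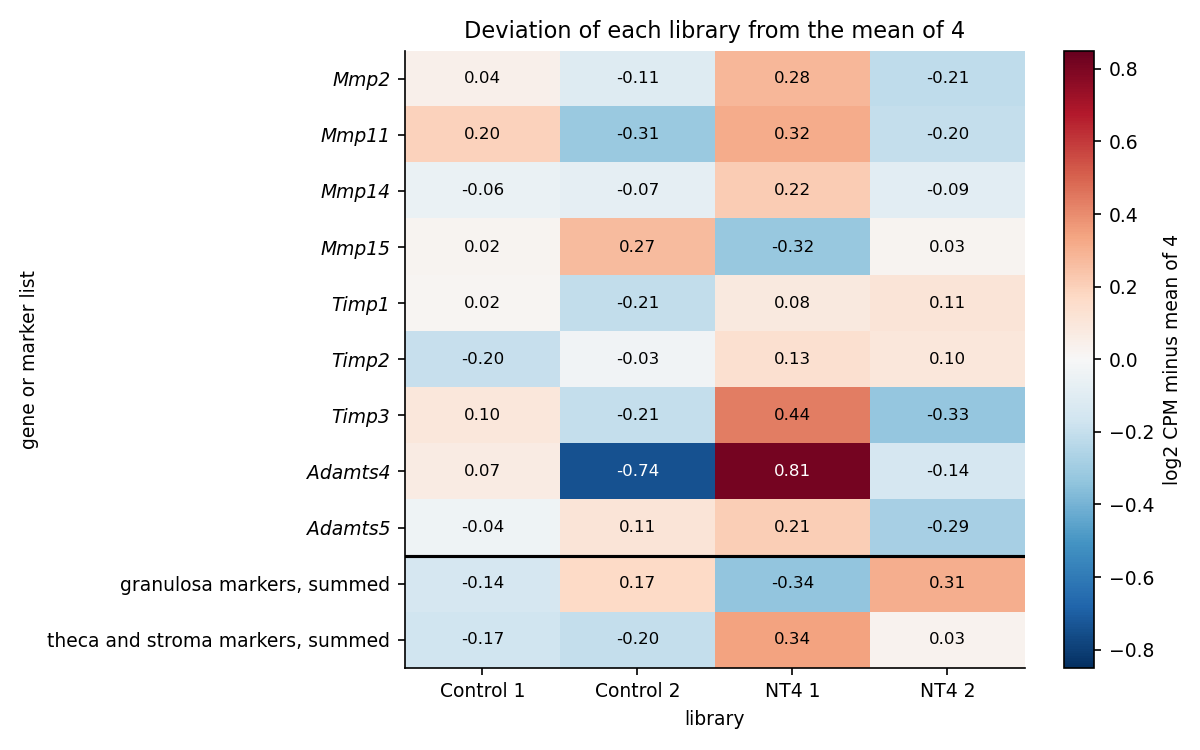
Deviation of each library from the mean of the 4, in log2 CPM, for the 9 genes tested (above the line) and for the summed GC markers and theca and stroma markers (below it). Red is above and blue below the mean. NT4 1 is above the mean in 8 of 9 genes and in theca and stroma markers (0.34), and below it in Mmp15 (−0.32) and in GC markers (−0.34).

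Levels were then compared between genes per length, as CPM per kilobase of annotated exon. Mmp11 was the highest at 76.2 ± 15.9 (SD over the 4 libraries) and above 96.5% of all genes tested. Timp2 came next at 33.1 ± 3.35, below Mmp11 in every library. Timp1 (22.5 ± 2.15) and Mmp14 (21.0 ± 2.24) did not differ beyond their spread, each being above the other in 2 of 4 libraries. Adamts5 (10.6 to 14.9 over the libraries), Timp3 (9.58 ± 2.35) and Mmp2 (8.70 ± 1.32) kept this order in each library, although their ranges over the libraries overlapped. Mmp15 (1.26 ± 0.208) and Adamts4 (0.962 ± 0.439) lay far below and overlapped each other, Mmp15 being the higher in 3 of 4 libraries. The order depends on the length used. Divided by the length of the longest transcript, Mmp14 moved to rank 2 at 38.6 CPM per kilobase and Timp3 to rank 5 at 16.5.

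**Figure D4:**
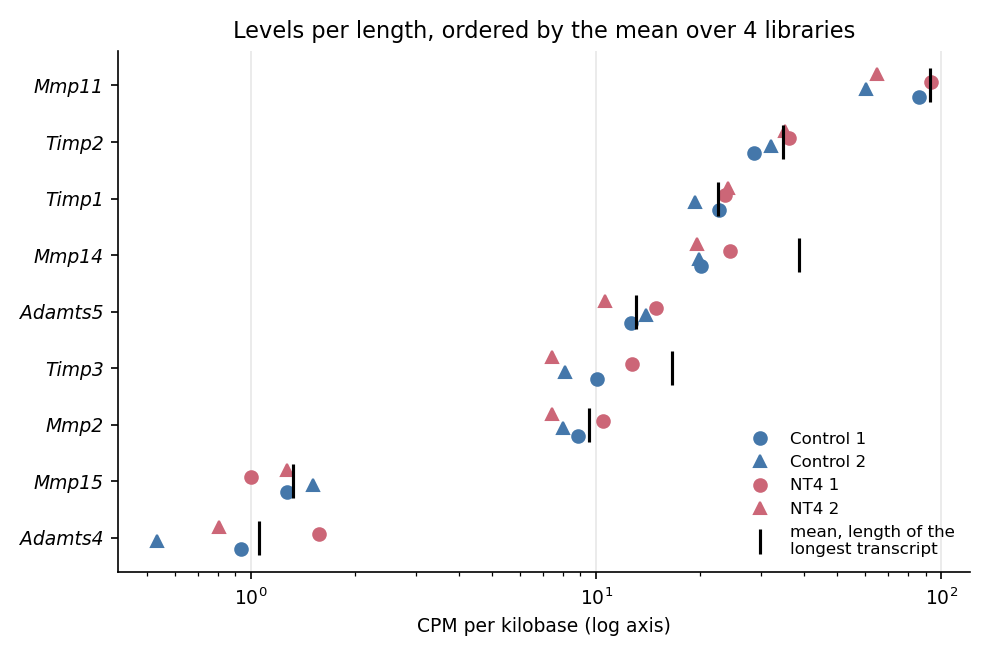
CPM per kilobase of annotated exon on a log axis for the 9 genes detected in every library, ordered by their mean. Symbols stand for the 4 libraries, and black ticks for the mean when divided by the longest transcript instead. Mmp11 stands apart at the top (60.3 to 93.4), and Mmp15 and Adamts4 lie at the bottom (0.533 to 1.57).

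Within the 5 MMPs, Mmp11 made up 67.2% to 73.9% of the summed level per kilobase by library, Mmp14 17.3% to 22.1%, Mmp2 7.63% to 8.93% and Mmp15 0.773% to 1.68%. Within the TIMPs, Timp2 made up 46.7% to 53.9%, Timp1 32.5% to 36.9% and Timp3 11.2% to 17.5%. The shares, like the order, depend on the length used, and shares by the longest transcript were not computed. The balance of inhibitors to MMPs was then taken as the ratio of these sums, which leave out the other MMPs and Timp4. It came to 0.528 and 0.666 in the Control libraries and to 0.561 and 0.714 in the NT4 libraries. Replicate 2 had the higher ratio in both groups, and the groups overlapped. The log2 ratio was higher in NT4 by 0.094, against an SD of 0.24 between libraries of a group. With all measured TIMPs over all measured MMPs this difference was 0.0967, and with CPM not divided by length 0.0855. Between same-numbered libraries the log2 ratio was higher in NT4 by 0.088 for number 1 and 0.101 for number 2, the mean of which is 0.094 by construction. Left-out libraries gave −0.073 without Control 1 and −0.0796 without NT4 2. With 2 libraries against 2, an exact permutation test of this value cannot go below a two-sided p of 0.333, nor an exact sign-flip test over the 2 numbers below 0.5.

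Wider lists of the same system were read from the same fit. Of 18 other MMPs and Timp4, 6 genes were tested and 6 had no count in any library (Mmp1a, Mmp1b, Mmp7, Mmp8, Mmp20 and Mmp21). None of the 6 tested passed the test, with 5 higher (51.0% of all genes) and 1 lower in NT4. Mmp23, a membrane MMP known from the ovary, was at 49.0, 45.0, 48.1 and 52.1 CPM in Control 1, Control 2, NT4 1 and NT4 2, and per kilobase (20.8 ± 1.25) its level was close to that of Mmp14. Mmp19 was at 11.5, 11.0, 15.1 and 8.11 CPM, with the NT4 libraries again the highest and the lowest. Mmp16 had a log2 fold change of 0.03 (SE 0.34) and Mmp17 one of 0.31 (SE 0.46).

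Of 22 other ADAMTS and ADAMTS-like genes, 18 were tested and 0 passed the adjusted threshold in edgeR's quasi-likelihood test, with 13 higher (51.0% of all genes) and 5 lower in NT4 and 1 at an unadjusted p under 0.05 (1.99%). Per kilobase Adamts2, which trims procollagen, had the highest level of the list at 59.2 ± 5.28, between Mmp11 and Timp2, and a log2 fold change of 0.014 (SE 0.14). Adamts1, a versican-cleaving enzyme needed for normal ovulation, was at 161, 167, 186 and 129 CPM in Control 1, Control 2, NT4 1 and NT4 2, the same order of NT4 libraries as Adamts5. Adamts10, which binds fibrillin, had a log2 fold change of 0.091 (SE 0.13). The smallest unadjusted p belonged to Adamts3, which trims procollagen as Adamts2 does, with 22 and 30 counts in Control against 0 and 4 counts in NT4, about 1 read pair. It met the study's criterion, as 1.08% of all genes did, but it passed the low-count filter only through the Control libraries, where it was higher, so its call is no support for a difference, and its adjusted p was 0.9999 in edgeR's test. Adamtsl3 was at 0.159, 0.19, 0.529 and 0.285 CPM, close to the floor.

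Partners in activation, inhibition and uptake were tested for 19 of 20 genes, and 0 passed the adjusted threshold, with 11 higher (51.0% of all genes), 8 lower and 2 at an unadjusted p under 0.05 (1.99% of all genes). Both NT4 libraries lay above both Control libraries in 4 of the 19 genes (13.4% of all genes) and below them in 3 (12.7%). Those 2 with the small p were Thbs2, a matrix protein that helps clear MMP2, and A2m, a broad protease trap. Thbs2 was at 17.5 and 17.6 CPM in Control and 25.2 and 23.6 CPM in NT4, a difference of 0.48 (SE 0.15) on the log2 scale. A2m was at 5.89 and 6.38 against 7.89 and 10.1 CPM, a log2 difference of 0.55 (SE 0.22). The groups did not overlap in either gene, and neither passed the adjustment over all genes (edgeR adjusted p of 0.9999 for both). Thbs1 (log2 fold change −0.20, SE 0.12), the endocytic receptor Lrp1 (−0.20, SE 0.14) and the MMP inducer Bsg (0.14, SE 0.15) were the most abundant by CPM. In Thbs1 and Lrp1 the groups did not overlap either, with both NT4 libraries below both Control libraries, while in Bsg they overlapped. Furin, the protease that removes the propeptide of MMP11 and MMP14, was at 113 to 122 CPM in the 4 libraries, with a log2 fold change of −0.022 (SE 0.11), and was named after its values were seen.

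Of 25 matrix substrates, 24 were tested and 0 passed the adjusted threshold. The counts were 18 higher and 6 lower (51.0% of all genes were higher), with 4 at an unadjusted p under 0.05 (1.99% of all genes) and a median log2 fold change of 0.22 (0.0045 over all genes). Both NT4 libraries lay above both Control libraries in 7 of the 24, against 13.4% of all genes, and NT4 1 was the highest library in 17, against 26.5%. Col4a1, a chain of the type IV collagen that MMP2 cuts, was at 537 and 487 CPM in Control and 736 and 662 CPM in NT4, a log2 difference of 0.45 (SE 0.12). Col3a1 (0.37, SE 0.13) and Dcn, the small proteoglycan decorin (0.39, SE 0.13), were higher in both NT4 libraries too, and Sparc had a log2 fold change of 0.22 (SE 0.12). The edgeR adjusted p of each was 0.9999. Versican, Vcan, the proteoglycan that ADAMTS1, ADAMTS4 and ADAMTS5 cut, was named after its values were seen and was at 169.6, 173, 144 and 175 CPM in Control 1, Control 2, NT4 1 and NT4 2. The substrate list holds 5 of the theca and stroma markers (Col1a1, Col1a2, Col3a1, Dcn and Lum), so the 2 lists are not separate evidence.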

How the data were processed

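By the methods, the authors made libraries with a strand-marking (dUTP) kit, trimmed reads with Cutadapt, mapped them with HISAT2 (mm10 in the submitters' processing notes) and estimated FPKM with StringTie and ballgown. The tool that gave the deposited expected counts, whole numbers per Ensembl gene without normalization, and its strand setting are not given in the sources used here. The table of the series and the 4 single-library files held identical counts in 4 of 4 libraries. Symbols matched 55144 of 55385 identifiers. Coordinates, exon lengths and coding sequences came from GENCODE M21 (GRCm38).

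Counts were tested in R 4.3.3 with edgeR 4.0.16 (quasi-likelihood test, TMM, default low-count filter, group alone, Benjamini-Hochberg over 19259 genes, two-sided). Library totals were 49520092 to 78704020 counts, or about 12380023 to 19676005 read pairs, and CPM values used the TMM-scaled totals of 50212646 to 77110914. SE and 95% intervals came from the same fit, with a prior count of 2 for log2 CPM. The procedure was also run on simulated data with 200 genes changed, and no conclusion here rests on that run. DESeq2 1.42.0, limma 3.58.1, edgeR's exact test, other scalings and filters, counts divided by 4, a replicate block and leaving out each library were the alternatives. A figure legend of the study calls the libraries independent experiments, the labels do not say so, and p-values measure only the spread between these samples.

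The genes and the lists were chosen with earlier results of these data known. Genes named were the 10 by name and, from each of 4 wider lists, the 3 with the highest mean CPM and the 2 with the smallest unadjusted p, beside cell type markers. Furin and Vcan were added outside this rule, after their values were seen. With 1 library of a group left out, the lone library was taken to vary as much as the other pair.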

Additional observations from a re-analysis of the deposited data

How the results depend on the processing

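Of 126 alternative values for the 9 genes tested, 119 kept their direction and their side of the threshold, and the 7 that reversed came from leaving out a library. These were −0.19 for Mmp2, −0.17 for Mmp11, −0.032 for Mmp14 and −0.29 for Timp3 without NT4 1, −0.11 for Mmp11 and 0.025 for Adamts5 without Control 2, and 0.17 for Adamts5 without NT4 2, and the cause was not tested. Over the fits on 3 libraries, log2 fold changes ranged from −0.19 to 0.31 for Mmp2, −0.17 to 0.39 for Mmp11, −0.032 to 0.28 for Mmp14, −0.29 to 0.48 for Timp3 and −0.33 to 0.17 for Adamts5. The lowest adjusted p of any of the 9 genes was 0.910 with a library left out (edgeR) and 0.9998 in the fits on all 4 libraries. The number of the 9 genes past an adjusted p of 0.05 was 0 in all 14 alternatives, and the number meeting the study's criterion was 0 except without NT4 2, where it was 1 (range 0 to 1), as for 392 of all 20287 genes tested there. That gene is Adamts4, with an unadjusted edgeR p of 0.0496 there. The median log2 fold change of the 9 genes ranged from −0.13 without NT4 1 to 0.26 without NT4 2, and the log2 ratio of TIMPs to MMPs from −0.0796 without NT4 2 (−0.073 without Control 1) to 0.27 without NT4 1. The scaling cancels in that ratio, so library totals tested nothing. The labels give both groups the same replicate numbers without saying that they pair the libraries, and deviations of same-numbered libraries had a Pearson correlation of 0.14 over all 19259 genes and 0.31 over the 10491 with a mean log2 CPM above 3. The study's methods say that the follicle cultures of all groups ran in parallel. A block on the log2 ratio, added after seeing the data, gives 0.094 by construction and tested nothing. With the number as a replicate block, 0 of the 9 genes passed the adjusted threshold and the median was 0.12. The log2 fold changes in that fit were 0.066 for Mmp2, 0.12 for Mmp11, 0.13 for Mmp14, −0.30 for Mmp15, 0.19 for Timp1, 0.23 for Timp2, 0.11 for Timp3, 0.67 for Adamts4 and −0.073 for Adamts5, with 1 unadjusted edgeR p under 0.05, 0.0238 for Adamts4, as for 580 of all 19259 genes. Over all genes, the count past an adjusted p of 0.05 was 0 in edgeR's quasi-likelihood test, 59 in its exact test, 62 in DESeq2, 10 when no gene was filtered, 12 without Control 1 and 37 without Control 2. Depth limits Mmp9, Adamts3 and the MMPs near 0.156 to 0.239 CPM.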
